A study of Rattus norvegicus with 8 samples.

Results

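Genes of synaptic vesicles and secretory granules were examined in the injured L5 dorsal root ganglion (DRG) of rats given a histone deacetylase inhibitor (HDACI) or vehicle. The set held 31 named genes, taken by symbol from the annotation of the array, and each gene was read from its brightest probe set over all arrays. Of these, 29 had a probe set with a single symbol, out of 14497 genes measured. Napb and Pcsk1 had none and were not analysed here. Every one of the 29 genes had only 1 probe set, so no second probe set could be set beside it. All animals were adult male Wistar rats with an intrathecal catheter, an osmotic pump and a transected L5 spinal nerve, and the ipsilateral ganglion was taken at day 14. One group of 4 received the class I inhibitor MS-275 at 30 nmol per day, and the other group of 4 received the vehicle, dimethyl sulfoxide in saline. The study's methods place pumps before the injury in its pretreatment experiments, and the labels give no start time for these samples. Each of the 8 samples was 1 Affymetrix Rat Gene 1.0 ST array of whole ganglion RNA, which mixes the axotomised neurons with satellite glia, Schwann cells, macrophages and connective tissue.

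Neurons release transmitter from small clear vesicles and neuropeptides from dense-core granules. Both kinds of carrier fuse through SNARE proteins, which zip vesicle and plasma membrane together when a synaptotagmin senses calcium. Dense-core granules additionally hold granins, which help to form the granule and concentrate its cargo, and enzymes that cut and amidate peptide precursors. In DRG neurons these proteins are made in the cell body and carried along the axon to the terminals, and axotomised sensory neurons are known to change their neuropeptides strongly. The 31 genes were divided by role into 21 vesicle fusion genes, whose products dock, prime or fuse vesicles or sit on their membrane, and 10 dense-core granule genes, whose products are granins or processing enzymes. Of these, 20 and 9 were measured.

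Array medians were 8.13 to 8.16 (log2), which the quantile normalization of the deposited values sets. The arrays differed in genes of other cell types. The mean of 16 skeletal muscle markers, each taken relative to its mean over all arrays, was 2.39 in vehicle replicate 1, 1.77 in vehicle replicate 2, -1.09 in vehicle replicate 3 and 0.62 in vehicle replicate 4 (log2), against -1.23 to -0.80 in HDACI. HDACI replicate 4 had the highest mean of 8 macrophage markers (0.50, against -0.17 to 0.08 on the other arrays). Of 12 sensory neuron markers 10 were measured, with log2 values from 7.26 for the dimmest gene to 12.83 for the brightest on average, and vehicle replicate 4 stood highest in them (0.42, against -0.23 to 0.05). The files give no detection call.

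Every measured vesicle fusion gene had a lower mean in HDACI than in vehicle, but the differences were small. All 20 were lower, by 0.02 to 0.26 on the log2 scale, with a median of -0.10. Of the 9 dense-core granule genes, 6 were lower and 3 were higher, with a median of -0.11 and a range from -0.32 to 0.05. The median over all 14497 genes was 0.00, and 46.9% of them had a difference below 0. Markers of other cell types also differed in mean between the groups. All 8 fibroblast markers and all 8 macrophage markers were higher in HDACI, with medians of 0.20 and 0.07, and both leaned on HDACI replicate 4. The macrophage mean was 0.50 on that array and -0.17 to 0.02 in HDACI replicates 1 to 3, against -0.14 to 0.08 in vehicle. The fibroblast mean was 0.41 on that array and -0.08 to 0.04 in HDACI replicates 1 to 3, against -0.30 to 0.11 in vehicle. All 7 measured CNS glia markers were lower, with a median of -0.10, and all 16 skeletal muscle markers were lower, with a median of -1.90. Of the 6 satellite glia markers 2 were lower and of the 6 Schwann cell markers 4, with medians of 0.01 and -0.01. The part of these cells in the differences of the fusion and granule genes was not tested. The muscle covariate given further on cannot test it, because the muscle score largely follows the groups. In bulk RNA of this kind, fewer neurons in the piece of tissue and less RNA per neuron cannot be told apart.

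No member passed the adjusted threshold. By limma, adjusting across the whole table of 28826 probe sets by Benjamini-Hochberg, the adjusted p was 0.9998 for each of the 29 genes, and 0% of all probe sets passed an adjusted p of 0.05, while 1022 had an unadjusted limma p under 0.05. At an unadjusted limma p under 0.05 there were 4 of 29 members, namely Syt1, Vamp1, Cadps and Scg5, and all 4 were lower in HDACI. This is 13.8% of the members, where 1.93% of all genes passed the same threshold as lower and 1.41% as higher. The other 25 members had 95% confidence intervals that crossed 0. The number at this threshold depended on single arrays. It was 12 when vehicle replicate 1 was left out, 2 when vehicle replicate 3 was, and 3 when HDACI replicate 1 or HDACI replicate 3 was. It was 1 when HDACI replicate 2, HDACI replicate 4, vehicle replicate 2 or vehicle replicate 4 was left out. The count over all probe sets varied as well, from 1022 with all arrays to 1758 when vehicle replicate 1 was left out and 1030 when vehicle replicate 3 was. With HDACI replicates 1 to 4 left out in turn it was 1172, 783, 1120 and 899. Without vehicle replicate 2 it was 708, and without vehicle replicate 4 it was 1337.

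**Figure D1:**
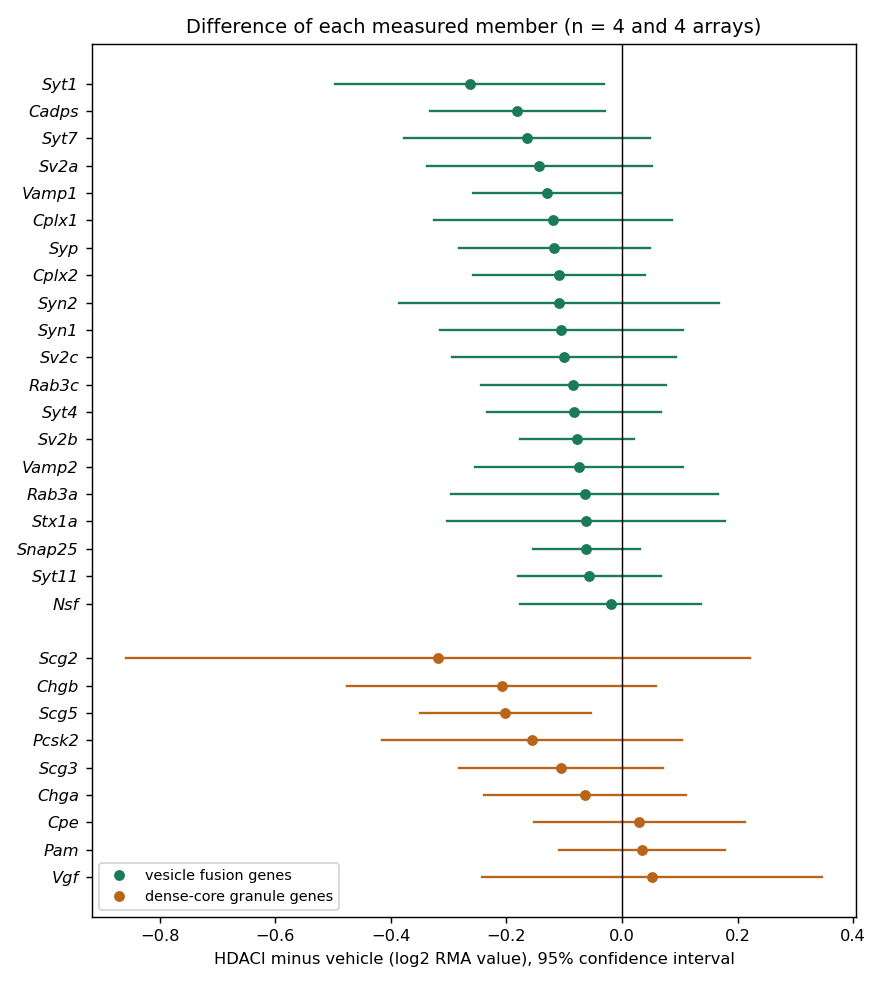
Each point gives HDACI minus vehicle for 1 gene on the log2 scale (horizontal axis), and each line its 95% confidence interval from limma with 4 arrays per group; vesicle fusion genes are green and dense-core granule genes are orange. All 20 green points lie left of 0, and the intervals of Syt1, Cadps, Vamp1 and Scg5 stay below 0.

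The fusion genes shared an order of arrays. Within the vehicle group, replicate 1 had the lowest value of the 4 arrays for 20 of the 20 fusion genes, and within the HDACI group, replicate 4 had the lowest value for 17 of the 20. Vehicle replicate 2 held the highest value of all 8 arrays for 10 fusion genes, vehicle replicate 3 for 5 and vehicle replicate 4 for 5. No HDACI array was the highest for any of them. Among the 9 granule genes, HDACI replicate 4 was the lowest of its group for 6, and vehicle replicates 1 and 4 were each the lowest of theirs for 4, so the granule genes shared it in part.

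**Figure D2:**
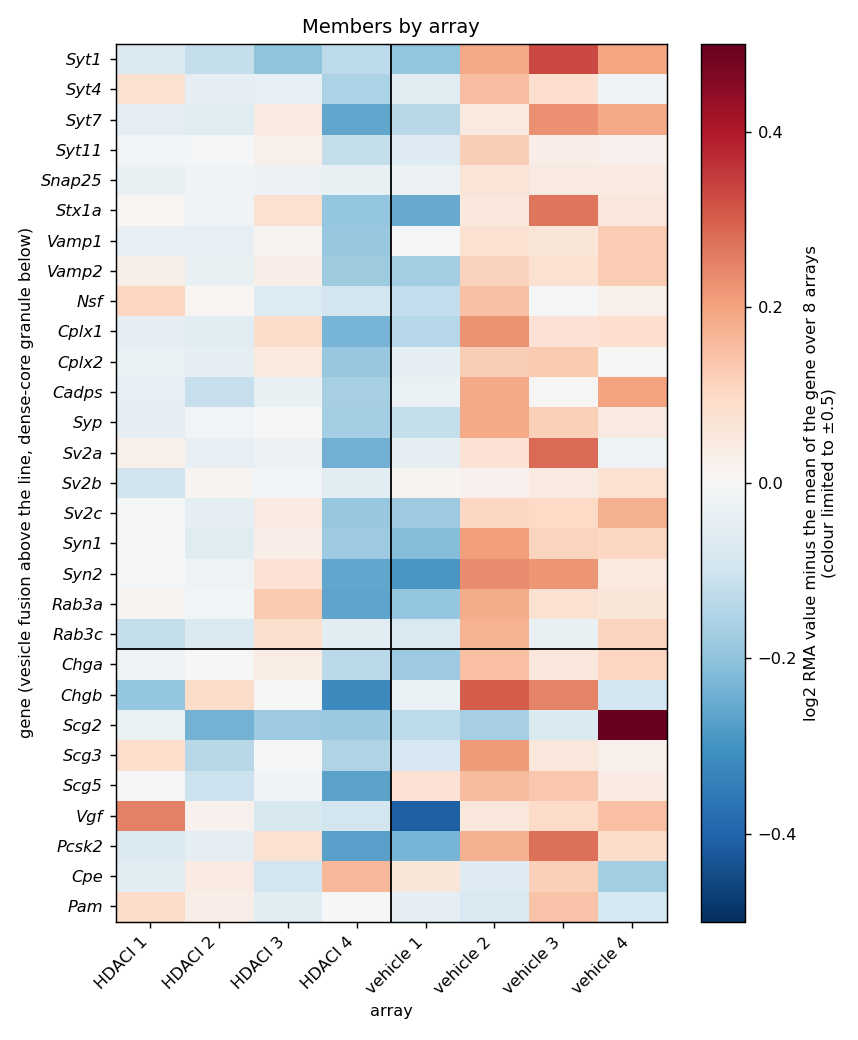
Colour gives the log2 value of each gene (rows) on each array (columns) relative to the mean of that gene over the 8 arrays, red for higher and blue for lower, with the colour scale limited to 0.5. The columns of HDACI replicate 4 and vehicle replicate 1 are blue for most genes, and Scg2 is dark red in vehicle replicate 4.

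Promoters of the members were searched for motifs in RefSeq sequence of rat build GRCr8, from 250 bases before the start of the gene to 50 bases after it. An entry was found for 27 of the 31 genes. The full cAMP response element, TGACGTCA, the site of CREB-family factors, reads the same on both strands. It lay in 4 of these 27 promoters, 2 of fusion genes and 2 of granule genes, and in 1.91% of all 27457 promoters. The window that holds it is printed for each of these 4 promoters. Capitals mark the element, and its first base lies 71 bases before the start in Vamp1, 190 in Syn1, 123 in Scg2 and 90 in Vgf.
Vamp1, chr4:159698803-159698850, plus strand: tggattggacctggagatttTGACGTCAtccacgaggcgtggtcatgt
Syn1, chrX:3725535-3725582, plus strand: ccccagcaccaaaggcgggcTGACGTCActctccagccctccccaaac
Scg2, chr9:88256962-88257009, minus strand: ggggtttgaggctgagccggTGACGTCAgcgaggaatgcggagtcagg
Vgf, chr12:25277083-25277130, minus strand: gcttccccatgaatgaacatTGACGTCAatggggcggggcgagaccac

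The shorter core TGACG, searched on both strands and contained in every full element, lay in 14 of the 27 member promoters and in 22.0% of all promoters. By class it was in 7 of 19 fusion promoters and 7 of 8 granule promoters. The GC box GGGCGG, a site of Sp-family factors, lay in 21 of 27 and in 34.9% of all. Both parts of the binding site of REST, a repressor of neuronal genes that recruits histone deacetylases, were searched separately and on either strand. CAGCACC lay in 8 of 27 promoters and in 6.91% of all, and GGACAG in 7 of 27 and in 21.8% of all. These are matches of letters only. Differences (log2, HDACI minus vehicle) of the 4 genes with a full element ran from -0.32 for Scg2 to 0.05 for Vgf. Between them lay -0.13 for Vamp1 and -0.10 for Syn1. The ends of this range leaned on single arrays. Scg2 was at -0.04 without vehicle replicate 4, and Vgf was at -0.08 without vehicle replicate 1. The intervals of Scg2, Syn1 and Vgf crossed 0. Whether the element goes with the size of a difference was not tested.

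Among the calcium sensors, Syt1 had the largest difference of any fusion gene. Syt1, synaptotagmin 1, triggers fast release from synaptic vesicles. It measured 10.38, 10.33, 10.25 and 10.32 in HDACI replicates 1 to 4 and 10.26, 10.65, 10.79 and 10.65 in vehicle replicates 1 to 4 (log2). The HDACI arrays lay close together, and 3 of the 4 vehicle arrays were above all of them, while vehicle replicate 1 lay among them. The difference was -0.26 ± 0.10 (log2, SE), or -16.7%, with a 95% interval from -0.50 to -0.03 and an unadjusted limma p of 0.0307. It ranged from -0.37 without vehicle replicate 1 to -0.20 without vehicle replicate 3, and passed an unadjusted p of 0.05 in 2 of the 8 settings that left out 1 array.

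Syt7, a slower and more sensitive calcium sensor that also acts on dense-core granules, followed with -0.16 ± 0.09 (SE). Its values were 9.49, 9.48, 9.58 and 9.28 in HDACI and 9.40, 9.59, 9.77 and 9.73 in vehicle. Again 3 vehicle arrays lay above every HDACI array and replicate 1 did not. Syt4 and Syt11, synaptotagmins whose calcium sites differ from those of Syt1, differed by -0.08 and -0.06, with intervals from -0.23 to 0.07 and from -0.18 to 0.07.

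The 4 SNARE genes were all lower in mean, with a median of -0.07. Vamp1, the vesicle SNARE synaptobrevin 1, measured 11.49, 11.49, 11.55 and 11.34 in HDACI and 11.52, 11.61, 11.59 and 11.66 in vehicle. Only HDACI replicate 3 reached into the vehicle range, above vehicle replicate 1. The difference was -0.13 ± 0.06 (log2, SE), with a 95% interval from -0.26 to -0.0014 and an unadjusted limma p of 0.0480. It passed an unadjusted p of 0.05 in 2 of the 8 settings that left out 1 array. Its close relative Vamp2, synaptobrevin 2, differed by -0.07 ± 0.08, with 11.05, 10.98, 11.05 and 10.84 in HDACI and 10.85, 11.14, 11.10 and 11.15 in vehicle. Vehicle replicate 1 lay far below the other 3 vehicle arrays for this gene.

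Snap25, the plasma membrane SNARE of neurons, differed by -0.06 ± 0.04 and varied little. The HDACI arrays lay between 12.86 and 12.88 and the vehicle arrays between 12.87 and 12.96, so the groups overlapped by 1 vehicle array. The interval of Snap25 ran from -0.15 to 0.03. Stx1a, syntaxin 1A, the partner of Snap25 in the plasma membrane, differed by -0.06 ± 0.11, and vehicle replicates held both its lowest value (8.997) and its highest (9.51). Nsf, the ATPase that pulls used SNARE complexes apart, had the smallest difference of the fusion genes, -0.02 ± 0.07, and its difference was 0.03 without vehicle replicate 2 and 0.01 without HDACI replicate 4.

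Complexins hold assembled SNAREs ready until calcium arrives. Cplx1 differed by -0.12 ± 0.09 and Cplx2 by -0.11 ± 0.07 (log2, SE). Both were lowest in HDACI replicate 4, at 11.28 and 9.35.

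Cadps was 1 of 2 members whose groups did not overlap. It encodes a priming factor best known for preparing dense-core granules for release. Its values were 10.29, 10.22, 10.30 and 10.17 in HDACI and 10.30, 10.53, 10.34 and 10.54 in vehicle. Every HDACI array lay below every vehicle array, although the highest HDACI array and the lowest vehicle array were 0.0047 apart. Over all genes, 1.2% had every HDACI array below every vehicle array and 1.04% had every HDACI array above. The difference of Cadps was -0.18 ± 0.07 (log2, SE), or -11.8%, with an interval from -0.33 to -0.03 and an unadjusted limma p of 0.0247, and it passed an unadjusted p of 0.05 in 4 of the 8 settings that left out 1 array.

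Of the vesicle membrane proteins, Syp (synaptophysin) differed by -0.12 ± 0.07. The SV2 glycoproteins, transporter-like proteins of the vesicle membrane, differed by -0.14 for Sv2a, -0.08 for Sv2b and -0.10 for Sv2c. None of the 4 intervals lay wholly below 0. Sv2b had the narrowest of them, from -0.18 to 0.02, and 3 of its HDACI arrays were below the lowest vehicle array. The synapsins, which tether vesicles in the reserve pool, differed by -0.10 for Syn1 and -0.11 for Syn2, and both were lowest in vehicle replicate 1 (10.37 and 10.36) and highest in vehicle replicate 2 (10.80 and 10.89). The small GTPases Rab3a and Rab3c, which bring vesicles to the release site, differed by -0.06 ± 0.10 and -0.08 ± 0.07. Over the 20 fusion genes the 95% intervals reached from -0.50 at the lowest to 0.18 at the highest.

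**Figure D3:**
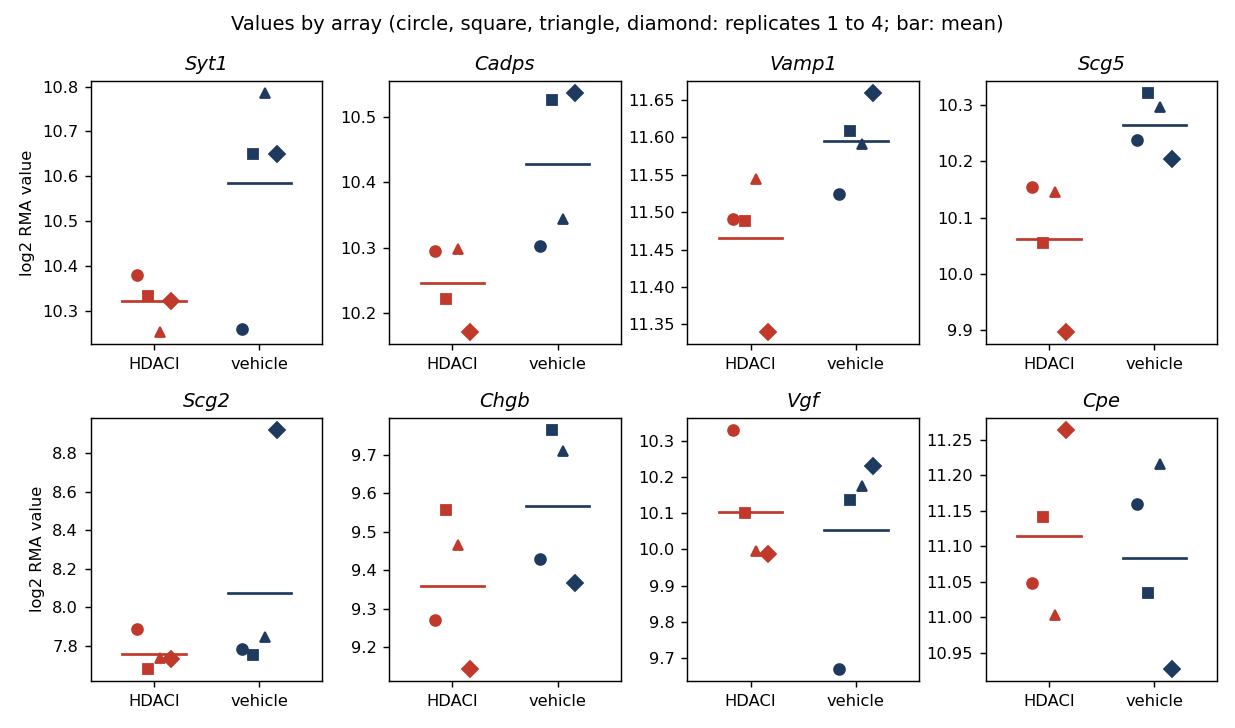
Log2 values (vertical axes, scaled for each gene) are shown for 8 members on each array, red for HDACI and dark blue for vehicle, with symbols for replicates 1 to 4 and bars for the means of n = 4. The groups are apart for Scg5 (by 0.049) and only just for Cadps (by 0.0047). For Syt1, vehicle replicate 1 lies with the HDACI arrays, and for Scg2 vehicle replicate 4 alone is high.

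Among the granins, Scg5 had the smallest unadjusted p of all 29 members. Scg5, also called 7B2, is a chaperone of the convertase encoded by Pcsk2. It measured 10.15, 10.06, 10.14 and 9.90 in HDACI and 10.24, 10.32, 10.30 and 10.20 in vehicle, and the groups did not overlap. The difference was -0.20 ± 0.07 (log2, SE), or -13.1%, with an interval from -0.35 to -0.05 and an unadjusted limma p of 0.0131. It passed an unadjusted p of 0.05 in each of the 8 settings that left out 1 array, with differences from -0.23 to -0.15. It did not pass when the muscle score was a covariate (-0.19), with arrays centred on the pan-neuronal score (-0.13), or with both vehicle arrays highest in muscle genes left out (-0.19). Its partner Pcsk2, which cuts propeptides at paired basic residues, differed by -0.16 ± 0.11, with an interval from -0.41 to 0.10.

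Scg2, secretogranin II, had the largest difference of any member, -0.32 ± 0.24, and this rested on 1 array. It measured 7.89, 7.68, 7.74 and 7.73 in HDACI and 7.79, 7.75, 7.84 and 8.92 in vehicle. Vehicle replicate 4 lay more than 1 log2 unit above the other 7 arrays, which spanned 7.68 to 7.89. Without it the difference was -0.04. The same array had the highest means of the sensory neuron markers (given above) and of 22 genes of granule peptides (0.24, against -0.12 to 0.02 on the other arrays). It was also highest in 5 measured adrenal chromaffin markers (0.46, against -0.15 to 0.05 on the other arrays). The part of any of these in the Scg2 value was not tested.

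Chgb, chromogranin B, measured 9.27, 9.56, 9.47 and 9.14 in HDACI and 9.43, 9.76, 9.71 and 9.37 in vehicle. The groups overlapped, and the difference of -0.21 ± 0.12 had an interval from -0.48 to 0.06. Chga, chromogranin A, differed by -0.06 ± 0.08 and Scg3, secretogranin III, by -0.11 ± 0.08.

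The 3 granule genes with a higher mean in HDACI were Vgf, Cpe and Pam, whose values are given after they were seen to have this sign. Vgf, a granin-like precursor that is induced by neurotrophins and nerve injury, measured 10.33, 10.10, 9.997 and 9.99 in HDACI and 9.67, 10.14, 10.17 and 10.23 in vehicle. Vehicle replicate 1 was the lowest array by a wide margin. The difference was 0.05 ± 0.13, and it was -0.08 without that array and -0.02 without HDACI replicate 1.

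Cpe, carboxypeptidase E, which trims basic residues from cut peptides, did not share the array order of most fusion genes. It measured 11.05, 11.14, 11.003 and 11.26 in HDACI and 11.16, 11.03, 11.22 and 10.93 in vehicle. HDACI replicate 4, low for most members, was its highest array. Its difference was 0.03 ± 0.08, and it was -0.02 without HDACI replicate 4 or without vehicle replicate 4. Pam, the enzyme that amidates peptides, differed by 0.03 ± 0.06 and did not share that order either. It was highest in vehicle replicate 3 (12.01) and lowest in vehicle replicate 4 (11.78). HDACI replicate 4 was also the highest array in the macrophage markers and in 8 fibroblast markers (0.41, against -0.30 to 0.11 on the others), and the part of such cells in the Cpe value was not tested.

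Set side by side, the fusion and granule classes had nearly the same median difference. It was -0.103 for fusion genes and -0.106 for granule genes, so that fusion minus granule came to 0.003 (log2). The sign of this small contrast was not stable. It was -0.055 without vehicle replicate 4, the array with the high Scg2 value, and 0.035 without HDACI replicate 1. Without vehicle replicate 4 the medians were -0.10 for fusion and -0.04 for granule genes. Within the granule class the median was -0.15 over the 6 granins, 5 of them lower, and 0.03 over the 3 measured processing genes, 1 of them lower. This split also leaned on vehicle replicate 4. Without it the granins were at -0.28 (Chgb), -0.22 (Scg5), -0.11 (Scg3), -0.04 (Scg2), -0.04 (Chga) and 0.11 (Vgf). The processing genes were then at -0.15 (Pcsk2), -0.02 (Cpe) and 0.01 (Pam). Members of a class are not replicates, so neither contrast was tested.

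By array, the mean of the 20 fusion genes was -0.02, -0.04, 0.01 and -0.17 in HDACI replicates 1 to 4 and -0.12, 0.14, 0.11 and 0.08 in vehicle replicates 1 to 4, each gene relative to its own mean. The mean of the 9 granule genes was 0.01, -0.04, -0.04 and -0.14 in HDACI and -0.11, 0.08, 0.12 and 0.12 in vehicle. Both classes thus had the same pair of low arrays, HDACI replicate 4 and vehicle replicate 1, and the groups overlapped through vehicle replicate 1. Without vehicle replicate 1 the median difference was -0.16 for fusion and -0.15 for granule genes, and without HDACI replicate 4 it was -0.06 and -0.07.

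Pan-neuronal markers outside the set had the same low arrays, HDACI replicate 4 and vehicle replicate 1. The mean of 19 of 20 pan-neuronal markers, such as Uchl1, Tubb3 and Map2, was 0.00, -0.01, 0.01 and -0.13 in HDACI and -0.13, 0.12, 0.08 and 0.06 in vehicle. Of these 19 genes 18 were lower in HDACI, with a median of -0.06. Of the 10 measured sensory neuron markers 8 were lower, with a median of -0.12, and their mean was lowest in vehicle replicate 1 (-0.23) and highest in vehicle replicate 4 (0.42), against -0.12 to -0.03 in HDACI. The log2 values of the dimmest pan-neuronal marker averaged 9.64, above the median of every array. With each array centred on its pan-neuronal mean, 15 of 20 fusion genes and 5 of 9 granule genes were lower, with medians of -0.04 and -0.04, and 1 member, Syt1, passed the unadjusted threshold. The difference of Syt1 was then -0.20, with an unadjusted limma p of 0.0404. With the pan-neuronal mean as a covariate instead, the medians were -0.03 and -0.03, and a different gene, Scg5, was the one to pass (-0.16, unadjusted limma p of 0.0349), while Syt1 was at -0.17 with an unadjusted limma p of 0.0742.

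Taken relative to the pan-neuronal mean of the same array, the fusion mean was -0.02, -0.03, 0.00 and -0.04 in HDACI and 0.01, 0.02, 0.03 and 0.02 in vehicle. These groups did not overlap, but the gap was narrow, with the highest HDACI array at 0.0046 and the lowest vehicle array at 0.0071. It leaned on Syt1, which differed by -0.20 after centring on the pan-neuronal mean, against a median of -0.04 over the fusion genes. How often other gene lists part by so small a gap was not counted. The granule mean taken in the same way overlapped, from -0.05 to 0.01 in HDACI and from -0.04 to 0.05 in vehicle. These values are descriptions.

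**Figure D4:**
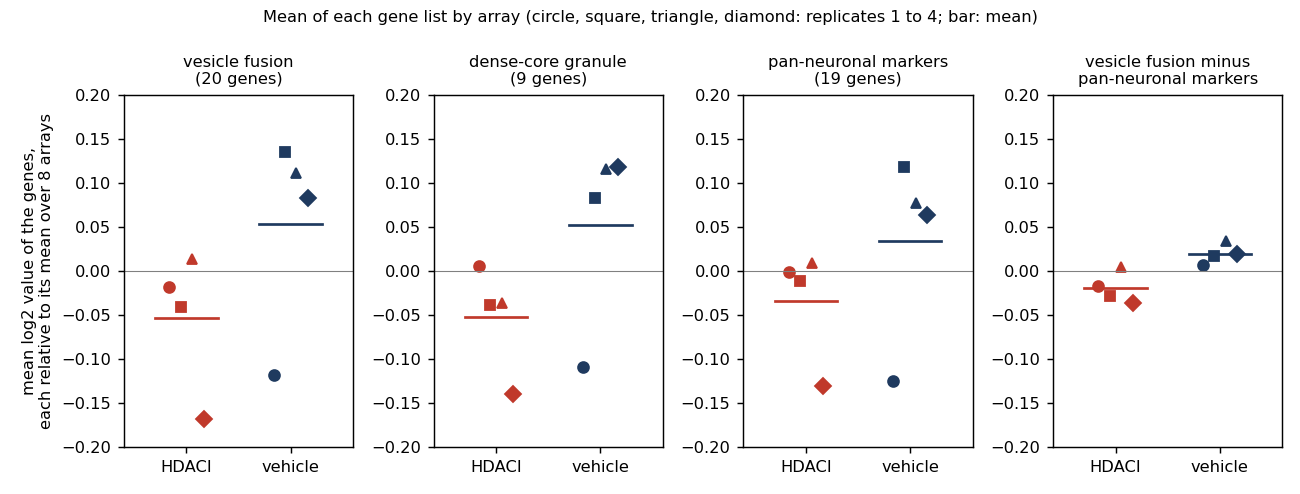
Points give, for each array, the mean log2 value of the fusion genes, the granule genes, the pan-neuronal markers and the fusion genes minus the pan-neuronal markers, with each gene relative to its mean over 8 arrays; bars are group means of n = 4, coloured red for HDACI and dark blue for vehicle. HDACI replicate 4 (diamond) and vehicle replicate 1 (circle) are the low arrays in the first 3 panels, and the spread narrows in the fourth.

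Skeletal muscle signal differed between the groups as well, as given above. Of the vehicle arrays only replicate 3 (-1.09) lay within the HDACI range of -1.23 to -0.80. A muscle covariate therefore cannot be told apart from the group, and its values are descriptions. With the skeletal muscle mean as a covariate, all 20 fusion genes and all 9 granule genes were lower in HDACI, with medians of -0.15 and -0.14. With vehicle replicates 1 and 2, the highest in muscle genes, both left out, a choice made after the values were seen, the medians were -0.14 and -0.11, with 20 of 20 and 8 of 9 genes lower.

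Other genes of the release machinery, listed with the set but not part of it, were also counted. Of 67 measured genes that include active zone scaffolds, further synaptotagmins and SNAREs, and vesicular transporters, 42 were lower, with a median of -0.03. This is 62.7%, where 46.9% of all genes were lower. At an unadjusted limma p under 0.05 there were 3, all lower, or 4.48%. Over all genes 1.93% passed this threshold as lower and 1.41% as higher. Sypl2, a synaptophysin relative of skeletal muscle membranes, differed by -0.83 ± 0.29 and was highest in the vehicle arrays rich in muscle genes (8.77 in replicate 1 and 8.08 in replicate 2). Synpr, synaptoporin, a vesicle protein related to Syp, differed by -0.20 ± 0.07, and Napg, a cofactor of Nsf, by -0.13 ± 0.05.

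Of 24 other granule genes, such as further convertases, cathepsins and the granule membrane proteins Ptprn and Ptprn2, 10 were lower, with a median of 0.01, and 0 had an unadjusted limma p under 0.05. The 3 with the smallest p were Sytl2 (-0.10), the convertase Furin (0.17) and Resp18 (-0.15). Of 22 genes of granule peptides (neuropeptides and other peptide cargo, with the neurotrophin Bdnf among them), 15 were lower (68.2%, against 46.9% of all genes). Their median was -0.06. At an unadjusted limma p under 0.05 there was 1 lower, Npy (-0.13 ± 0.05), and 1 higher, Cck (0.17 ± 0.08). Over all genes these shares were 1.93% and 1.41%, and 1 of 22 is 4.55%. The third smallest p was that of Bdnf (-0.12). None of these genes passed adjustment over all probe sets.

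**Figure D5:**
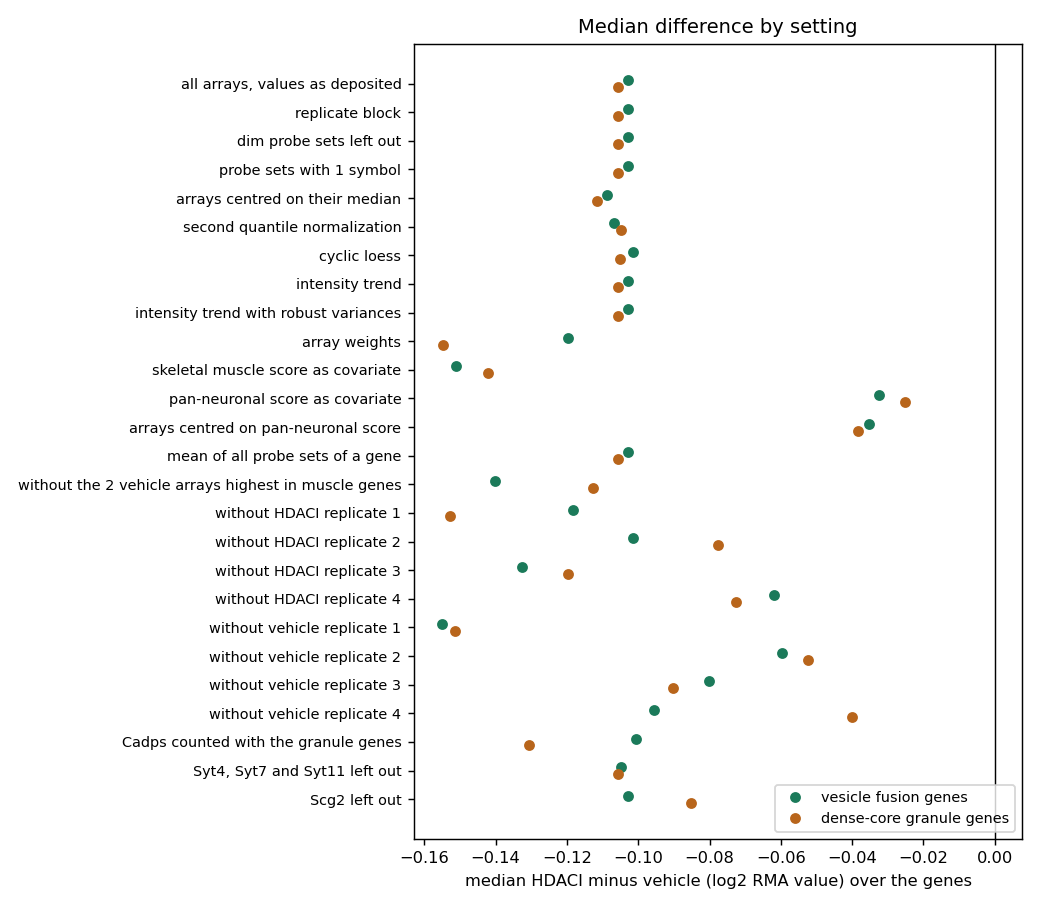
Points give the median HDACI minus vehicle difference (log2, horizontal axis) over the fusion genes in green and the granule genes in orange under each processing setting (rows). All points lie left of 0, from -0.16 without vehicle replicate 1 to -0.03 with the pan-neuronal score as a covariate.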

How the data were processed

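RNA of 8 ganglia was hybridized to 1 array each, and the methods call the 4 samples of a group biological replicates. The authors preprocessed the arrays by RMA in oligo (background correction, quantile normalization, summary of probes), which gave the deposited log2 values. Versions are not given in the sources used here. Quantile normalization hides a change shared by all transcripts. Arrays have no read depth, and precision rests on their number. Of 28826 probe sets, 15209 had 1 symbol in the platform annotation, 306 several and 13311 none. Any pair of arrays had identical values for at most 0.0486% of probe sets.

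Differences (HDACI minus vehicle) were tested two-sided by lmFit and eBayes of limma (version 3.58.1, R 4.3.3), adjusting over the whole table by Benjamini-Hochberg. The code was tested on simulated data. Lists and classes are described by counts and medians, without a test. Members with an unadjusted p under 0.05, with groups that did not overlap or among the 3 largest differences of a class were given in full, and of each other list up to 3 genes with the smallest p were named. Members, lists and classes were chosen with earlier results of these data known. Alternatives covered normalization, filters, variance models, covariates, the replicate number as a block, class membership and leaving out arrays. Planned protein measures were not used here.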

Additional observations from a re-analysis of the deposited data

Results flagged for a closer look

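In a comparison of the extreme array with the rest of its group of 4, made for 58 groups of values, 3 members had 1 array far from the other 3 (a gap, as a share of the range of the group, above Dixon's 95% critical value). Chance flags about 1 in 20 groups, or 2.9 of 58. Scg2 was 8.92 in vehicle replicate 4, against 7.75 to 7.84 in the other vehicle arrays. Vamp2 was 10.85 in vehicle replicate 1, against 11.10 to 11.15, and Vgf was 9.67 in the same array, against 10.14 to 10.23.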

How the results depend on the processing

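The medians of both classes stayed below 0 under all 25 alternatives, from -0.16 to -0.03 for fusion genes and from -0.15 to -0.03 for granule genes. Several of these cannot move a member's difference by design. They are the replicate block, the filters of probe sets, the intensity-trend variance models and the mean over all probe sets of a gene. Under them the medians stayed at -0.103 and -0.106, so they say nothing on stability. No member passed an adjusted p of 0.05 under any of 22. Fusion minus granule ranged from -0.0554 (vehicle replicate 4 left out) to 0.0345 when single arrays were left out. The number of members with an unadjusted p under 0.05, 4 as reported, was 2 with the replicate block (Chgb and Scg5), 8 with array weights (where probe sets at this threshold went from 1022 to 2045), 1 with the pan-neuronal score as a covariate (Scg5), 1 with arrays centred on that score (Syt1), and 1 to 12 when single arrays were left out. For the other genes of the pathway (lists of 67, 24 and 22 measured genes), 5 as reported, it was 8 with cyclic loess, 17 with array weights, 8 with the muscle score, 2 with the pan-neuronal score, 3 with arrays centred on it, 13 without vehicle replicates 1 and 2 (chosen after seeing the data, as they were highest in muscle genes), and 2 to 21 when single arrays were left out. The count over all 28826 probe sets, 1022 as reported, moved as well. It was 803 with the replicate block, 1126 with cyclic loess, 1046 with the muscle score and 1330 with the pan-neuronal score. It was 1101 with arrays centred on that score, 1383 without vehicle replicates 1 and 2, and 708 to 1758 when single arrays were left out. Same-numbered arrays did not deviate together (correlations of -0.04, 0.01, 0.01 and -0.28 over all probe sets), so the replicate numbers were not taken as pairs.

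The sign of a member's difference turned in 27 of 638 pairs of member and alternative, none past an adjusted p of 0.05. The 638 pairs include the alternatives named above that cannot move a difference, where no sign could turn. Of the 29 members, 17 kept their sign throughout. Centred on the pan-neuronal score, the difference was 0.0112 for Syt11, 0.00596 for Snap25, 0.00523 for Stx1a, 0.0479 for Nsf, 0.00259 for Rab3a and 0.00291 for Chga. With that score as a covariate, the difference was 0.0498 for Stx1a, 0.0134 for Vamp2, 0.0396 for Nsf, 0.00383 for Syn1, 0.0381 for Syn2, 0.0515 for Rab3a, 0.0204 for Chga and -0.0205 for Cpe. With the muscle score as a covariate, the difference was -0.142 for Vgf, -0.0252 for Cpe and -0.0678 for Pam. Without vehicle replicates 1 and 2, the difference was -0.0984 for Vgf and -0.011 for Pam. When single arrays were left out, it ranged from -0.157 to 0.0161 for Stx1a (turned without vehicle replicate 3), from -0.0643 to 0.0255 for Nsf (turned without HDACI replicate 4 or vehicle replicate 2), from -0.14 to 0.0116 for Rab3a (turned without HDACI replicate 4), from -0.0762 to 0.11 for Vgf (turned without HDACI replicate 1 or vehicle replicate 1) and from -0.0225 to 0.074 for Cpe (turned without HDACI replicate 4 or vehicle replicate 4). The causes were not tested.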
